A study of Pinus pinaster with 18 samples.

Results

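A set of 7 NAC-group transcripts of maritime pine (*Pinus pinaster*) were followed through somatic and zygotic embryo development. The 7 transcripts were taken by their identifiers from a table of 287424 transcripts, and all 7 were among the 23118 that exceeded 2 CPM (counts scaled to the size of the library) in at least 6 libraries. All are hub genes that the study picked by co-expression on these same 18 libraries, so the levels and fold changes given for them are a description and carry no test. They comprise a pair named NAC domain protein after *Pinus massoniana* (ppt_207949 and ppt_207946), NAC protein 1 splice variant 1 after oil palm (ppt_58155) with its identifier neighbours ppt_58154 and ppt_58156, BEARSKIN1 after wild soybean (ppt_192238) and NAC domain-containing protein 100 after Arabidopsis (ppt_183181, NAC100 hereafter). The names are protein matches in the supplementary tables of the study. ppt_58154 and ppt_58156 match a Sitka spruce protein without a descriptive name, so their place in the NAC family rests on their neighbour. The deposited table holds neither transcript sequences nor genome positions.

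NAC proteins are a family of transcription factors found in plants, named for the DNA-binding domain at their amino terminus. In Arabidopsis, members of the CUP-SHAPED COTYLEDON (CUC) group mark the boundaries between organs and are needed for separate cotyledons and for the embryonic shoot meristem. Arabidopsis NAC100 belongs to the part of the family whose transcripts are targets of the microRNA miR164, as are those of CUC2. Arabidopsis BEARSKIN1 acts with its relatives BEARSKIN2 and SOMBRERO in the maturation of the root cap and in the release of its cells. None of these roles was measured here in pine.

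Somatic embryos came from 1 embryogenic line, PN519, which was matured in darkness at 24 °C. The medium was gelled with 9 g/L phytagel and held sucrose at 68 g/L and abscisic acid at 80 µM. Embryos were taken as early translucent embryos at 4 to 6 weeks (ES1), as opaque pre-cotyledonary embryos at 6 to 10 weeks (ES2) and as cotyledonary embryos at 12 to 14 weeks (ES3). Zygotic embryos were dissected from seeds of a single orchard at the pre-cotyledonary stage (PC), the early-cotyledonary stage (EC) and the cotyledonary stage (C). Each group had 3 libraries of total RNA. The study pairs ES1 with PC, ES2 with EC and ES3 with C as presumed counterparts. By name, PC and not EC shares the pre-cotyledonary stage with ES2. Embryo type therefore cannot be told apart from a shift in stage in ES1 against PC and in ES2 against EC. Nor can it be told apart from genotype, culture and harvest, since all somatic embryos are of 1 line. The methods of the study describe independent biological samples at every stage, with technical replicas of each, and the labels do not tie the libraries of a group to these samples. In whole embryos, fewer cells that contain a transcript and less of it per cell cannot be told apart.

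Library totals ran between 22725467 and 43510184 counts at the 5 stages other than C, and between 74949347 and 89590401 in C. The C libraries also stood apart in what was counted, with 132828 to 136626 transcripts against 24704 to 25194 in each other library, and with 29.05 to 29.43% of their counts on 137783 transcripts that had no count elsewhere. Transcripts counted in C alone could not pass the filter of at least 6 libraries, and 70.39 to 70.79% of the C counts lay on kept transcripts. TMM factors, which scale for composition, were set on the kept transcripts alone. They were 0.422 to 0.4278 in C, against 0.8245 to 1.442 in the other libraries, so the kept transcripts of C differed in composition as well. Values with C are therefore given under other scalings below. Late embryogenesis abundant (LEA) and storage protein transcripts, which mark maturing embryos, were counted for all 53 of the list in ES1, in ES2 and in ES3, and for 51, 49 and 38 of them in PC, EC and C. Their summed level was 6014 to 6622 CPM in ES1, 10500 to 11690 in ES2 and 10930 to 15000 in ES3, and 2714 to 2911 in PC, up to 3511 in EC and 12650 to 14070 in C. Of the 53, 41 rose and 2 fell in ES1 against PC, 48 and 2 in ES2 against EC, and 31 and 8 in ES3 against C by the test described below. Of all transcripts, 24.2% were called higher in ES1 against PC, 22.7% in ES2 against EC and 29.9% in ES3 against C. Those called lower were 13.5%, 16.7% and 15.1% in the same order. By reads on kept transcripts in place of TMM, 42 rose in ES3 against C, beside 13982 of all 23118 transcripts. The most abundant of them, matched to a peanut group 9 LEA protein (ppt_155780), was at 1421 ± 221 CPM in ES3 and at 4885 ± 219 CPM in C (SD, n = 3). A spruce LEA match (ppt_200866) was at 1610 ± 162 CPM in ES3 and at 1615 ± 98.8 CPM in C. No marker list for other seed tissues was used, so carry-over of seed tissue into the zygotic samples was not tested.

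The NAC domain protein pair was higher at each later somatic stage and came up late in zygotic embryos. In CPM after TMM scaling, ppt_207949 was at 3.49, 2.34 and 2.52 in ES1, at 5.91, 6.19 and 6.29 in ES2 and at 10.5, 8.94 and 14.0 in ES3. In zygotic embryos it was at 0.0723, 0.0519 and 0.0880 in PC, at 0.438, 0.135 and 0.0845 in EC and at 6.24, 2.18 and 5.37 in C. The 3 somatic stages did not overlap one another, PC and EC lay below every somatic library, and C overlapped both ES1 and ES2. Over all transcripts, 25% were higher without overlap in ES2 against ES1 and 13.4% in ES3 against ES2. Behind the zygotic values of ppt_207949 stood 9 reads in all of PC and 25 in all of EC, so the early zygotic levels lay near the limit of counting.

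Its partner ppt_207946 showed the same course, which is no independent repeat, since both may be forms of the same gene. It was at 3.00, 3.33 and 3.37 CPM in ES1, at 8.52, 8.83 and 8.75 in ES2 and at 13.2, 11.3 and 18.3 in ES3. In PC it was at 0.0964, 0.104 and 0, in EC at 0.188, 0.116 and 0.127, and in C at 6.88, 2.86 and 8.04. Each somatic stage again lay apart from the next, the lowest C library lay below ES1, and the other 2 lay between ES1 and ES2. Within a library the ratio of ppt_207946 to ppt_207949 counts had a median of 1.32 and ranged from 0.861 to 1.496 over the 12 libraries with at least 50 reads of ppt_207949. Transcript lengths were not available, so levels are not compared between transcripts and such ratios are only followed across libraries.

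NAC protein 1 and its neighbours had their highest level in ES1 and were low in all zygotic stages. ppt_58155 was at 59.1, 59.9 and 61.7 CPM in ES1, at 41.1, 48.2 and 42.4 in ES2 and at 22.5, 29.5 and 52.2 in ES3. It was at 3.37, 3.17 and 1.76 in PC, at 1.06, 1.29 and 0.887 in EC, and at 0, 0 and 0.266 in C. ES1 lay above ES2 in every library, ES3 overlapped ES2 through its replicate C, and the 3 zygotic stages lay below one another without overlap. Over all transcripts, 25.4% were lower without overlap in ES2 against ES1, 18.5% in EC against PC and 39.1% in C against EC. The C values of ppt_58155 rest on 6 reads, all in replicate 3.

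The neighbours moved with it. ppt_58154 was at 76.4, 77.1 and 78.5 CPM in ES1, at 54.2, 62.8 and 57.9 in ES2 and at 31.0, 35.6 and 63.4 in ES3, and ppt_58156 was at 60.2, 55.4 and 62.5, at 40.8, 51.6 and 37.4 and at 21.8, 25.03 and 50.4 in the same order. In zygotic embryos ppt_58154 averaged 3.19 ± 0.708 CPM in PC, 1.71 ± 0.348 in EC and 0.258 ± 0.185 in C (SD, n = 3). ppt_58156 averaged 1.97 ± 0.733, 1.09 ± 0.514 and 0.159 ± 0.151 CPM at these stages, where PC and EC overlapped. The within-library ratio to ppt_58154 had a median of 0.773 for ppt_58155 and of 0.718 for ppt_58156, with ranges of 0.457 to 0.985 and 0.427 to 0.822 over 15 libraries. The lowest and the highest ratio of ppt_58155 were both in EC, and the C libraries, with at most 10 reads of a transcript, were left out.

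BEARSKIN1 was counted in every somatic library and hardly at all in zygotic ones. It was at 17.44, 11.4 and 15.3 CPM in ES1, at 9.70, 14.2 and 12.6 in ES2 and at 6.67, 8.75 and 16.4 in ES3, and these 3 stages overlapped. As reads, the somatic libraries held 250 to 645 each. PC held 0, 8 and 1, EC held 0 in each library, and C held 0, 0 and 2. The zygotic values span the whole range from no read to 0.208 CPM, and 8 of the 9 PC reads lie in 1 library.

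NAC100 was the only one of the 7 with its highest level in zygotic embryos. It was at 5.41, 4.51 and 6.45 CPM in ES1, at 4.71, 4.82 and 2.62 in ES2 and at 2.19, 1.77 and 1.73 in ES3. In zygotic embryos it was at 34.2, 42.1 and 26.5 in PC, at 16.5, 16.4 and 11.2 in EC and at 0.594, 0.451 and 0.311 in C. PC lay above EC and EC above C in every library, and among the somatic stages ES3 lay below ES2 and ES1, which overlapped. Over all transcripts, 18.5% were lower without overlap in EC against PC, 39.1% in C against EC and 12.9% in ES3 against ES2. The order of its levels was PC, EC, ES1, ES2, ES3 and C, so that NAC100 was below its zygotic counterpart in ES1 and ES2 and above it in ES3.

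**Figure D1:**
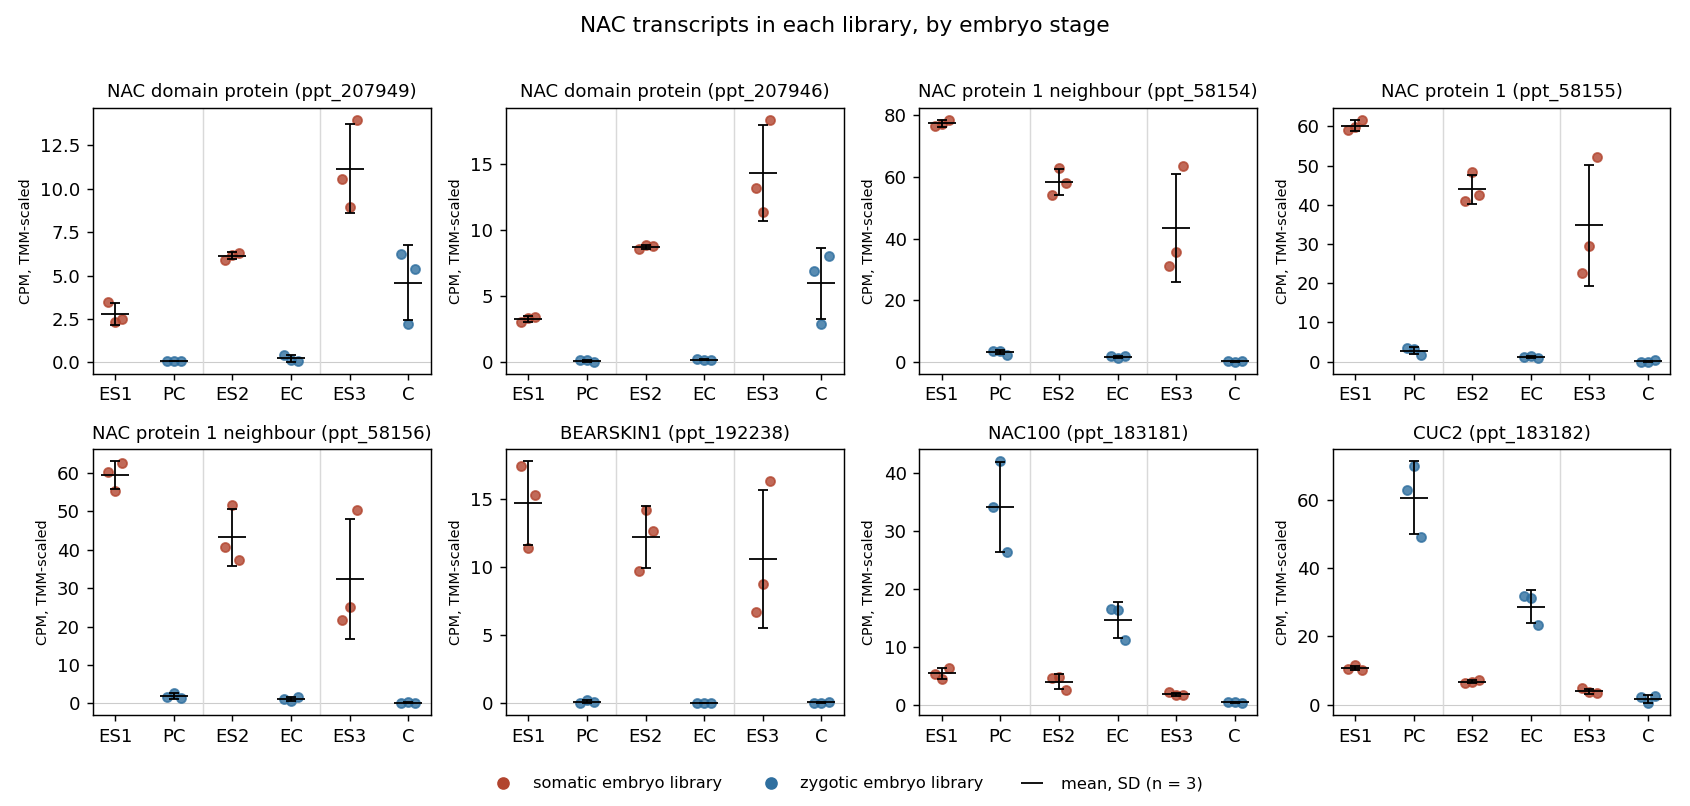
Level of each of the 7 NAC-group transcripts and of the CUC2 match in each library (vertical axis, TMM-scaled CPM, each panel with its own linear axis) at the 6 stages (horizontal axis, somatic stage left of its zygotic counterpart). Points are libraries and bars the mean ± SD of 3; the NAC domain pair climbs to 8.94 to 18.3 CPM in ES3, NAC protein 1 lies at or under 3.37 CPM and BEARSKIN1 at or under 0.208 CPM in all zygotic libraries, and NAC100 peaks at 26.5 to 42.1 CPM in PC.

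Set against each other at the stages that the study pairs, 6 of the 7 transcripts were higher in somatic embryos at the first 2 stages and NAC100 was lower. A transcript counts as called here when its log2 fold change exceeded 1 in size and edgeR's quasi-likelihood test, adjusted over all 23118 transcripts, put its p under 0.05. In ES1 against PC, 6 of the 7 were called higher and 1 lower, where 24.2% of all transcripts were called higher and 13.5% lower. In ES2 against EC the split was again 6 and 1, beside 22.7% and 16.7% of all transcripts. In ES3 against C all 7 were called higher, beside 29.9% of all. The 7 were chosen on these libraries for their co-expression, so nothing is read from these shares. In each of the 3 comparisons the 2 groups did not overlap for any of the 7, which held in the higher direction for 36.9%, 34.1% and 38.1% of all transcripts and in the lower direction for 32.6%, 34.4% and 28%.

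The NAC domain pair differed most at the earlier stages. As a log2 fold change, ppt_207949 had 5.22 ± 0.56 (SE) in ES1 against PC, 4.89 ± 0.50 in ES2 against EC and 1.28 ± 0.40 in ES3 against C. For ppt_207946 it was 5.58 ± 0.54, 5.93 ± 0.50 and 1.27 ± 0.37. The last difference depends on 1 library for its call, since without C replicate 2, the lowest of C, the values were 0.93 ± 0.38 and 0.92 ± 0.35, under the threshold of 1. Without ES3 replicate C, the highest of ES3, they were 1.07 ± 0.43 and 1.04 ± 0.39.

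NAC protein 1 and its neighbours went the other way, with a wider gap at the cotyledonary stage. As a log2 fold change, ppt_58155 had 4.45 ± 0.40 in ES1 against PC, 5.34 ± 0.42 in ES2 against EC and 8.65 ± 0.59 in ES3 against C. For ppt_58154 it was 4.60 ± 0.31, 5.10 ± 0.32 and 7.42 ± 0.40, and for ppt_58156 it was 4.92 ± 0.44, 5.32 ± 0.46 and 7.59 ± 0.58. The cotyledonary values have 18, 6 and 12 reads of ppt_58154, ppt_58155 and ppt_58156 in C behind them. Without C replicate 3, which holds all 6 reads of ppt_58155, no read of it is left in C and the fitted value is no measure of size.

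For BEARSKIN1 a fold can be given only within the limits of the zygotic reads. In ES1 against PC the fitted log2 fold change was 7.59 ± 0.71, and it lay between 7.00 and 9.93 when each library was left out in turn, since PC replicate 2 holds most of the PC reads. In ES2 against EC, with 404 to 580 reads in each ES2 library and none in EC, BEARSKIN1 was at least 532-fold higher in ES2, with the floor set at 3 reads over the group. In ES3 against C, with 1089 reads and 2, the ratio after scaling was 362 with a 95% counting interval of 100.1 to 2996. These bounds cover counting error only.

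NAC100 reversed its direction between stages. On the log2 scale it differed by -2.65 ± 0.27 in ES1 against PC, by -1.86 ± 0.26 in ES2 against EC and by 2.06 ± 0.33 in ES3 against C. Leaving out each library in turn gave -2.83 to -2.50, -2.04 to -1.61 and 1.85 to 2.28. The level in ES3 was itself the lowest of the somatic stages, and the later sign came with a level in C of 0.452 ± 0.142 CPM (SD, n = 3), against 11.2 to 16.5 CPM in the EC libraries.

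**Figure D2:**
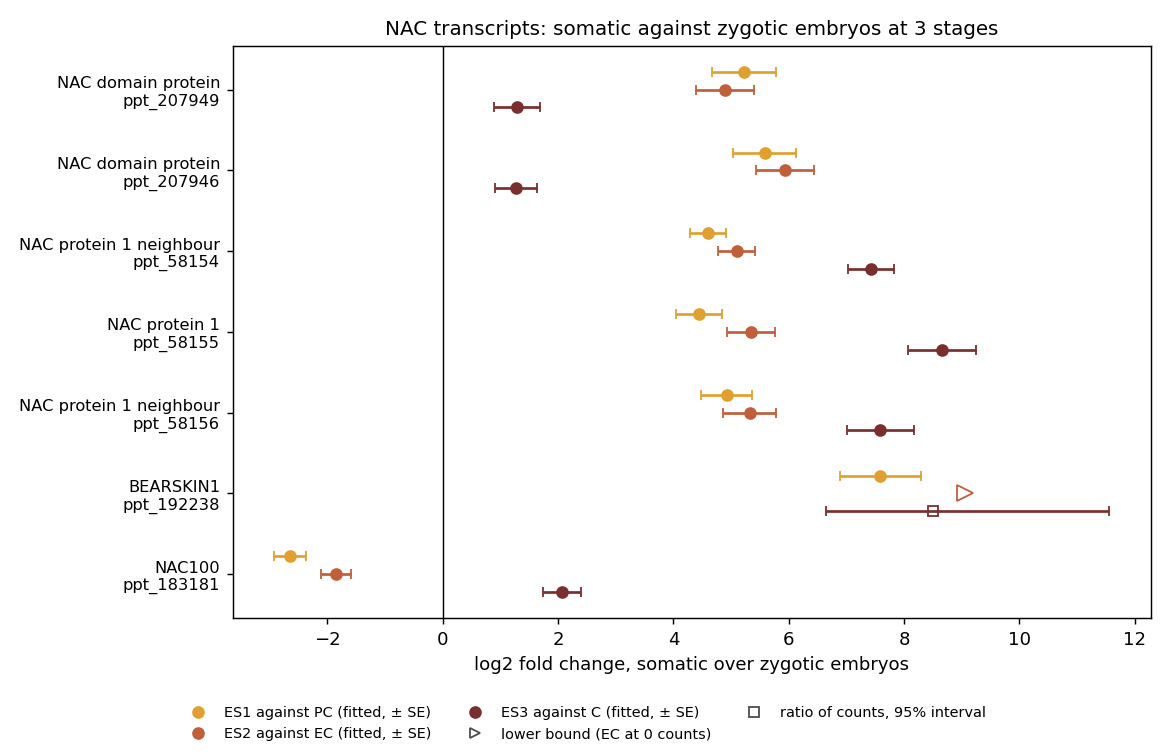
Log2 fold change of somatic over zygotic embryos (horizontal axis) for the 7 transcripts (vertical axis) at the 3 stages paired by the study. Filled points are fitted values ± SE, the open triangle a lower bound and the open square a ratio of reads with its 95% interval. The NAC domain pair drops to 1.28 and 1.27 in ES3 against C, NAC protein 1 and its neighbours reach 7.42 to 8.65, and NAC100 crosses from -2.65 and -1.86 to 2.06.

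In the first developmental step, 2 of the 7 transcripts were called in each embryo type. In ES2 against ES1 the 2 NAC domain transcripts were called higher, beside 8.42% of all transcripts, with log2 fold changes of 1.14 ± 0.40 for ppt_207949 and 1.43 ± 0.38 for ppt_207946. The call of ppt_207949 was lost in 5 of 18 fits that left out 1 library, whose values ran from 1.02 to 1.33. The other 5 transcripts had values of -0.46 to -0.27 and were not called, where 9.6% of all transcripts were called lower. In EC against PC, ppt_58155 and NAC100 were called lower, at -1.35 ± 0.39 and -1.22 ± 0.25, beside 2.25% of all transcripts. ppt_58154 and ppt_58156 had values of -0.90 ± 0.29 and -0.85 ± 0.43 and were not called. ppt_207949 had a value of 1.46 ± 0.65 with overlapping groups, and ppt_207946 a value of 1.07 ± 0.67 with EC above PC in every library, and neither was called. BEARSKIN1 had 9 reads in PC and 0 in EC, too few for a fold. Over all transcripts 5.83% were called higher in this step, and 20.8% were higher without overlap.

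The second step separated the embryo types. In C against EC the NAC domain pair was called higher, at 4.48 ± 0.50 for ppt_207949 and 5.38 ± 0.49 for ppt_207946, beside 22.7% of all transcripts. NAC100 was called lower at -5.01 ± 0.33, and so were ppt_58154, ppt_58155 and ppt_58156 at -2.75 ± 0.42, -3.65 ± 0.68 and -2.70 ± 0.65, beside 29% of all transcripts. C and EC did not overlap for these 6, as for 34.8% of all transcripts in the higher and 39.1% in the lower direction. In ES3 against ES2 only NAC100 was called, at -1.09 ± 0.27, beside 2.72% of all transcripts called lower and 1.65% called higher. Its call was lost in 3 of the 18 fits without 1 library, which gave -1.32 to -0.94. ppt_207949 and ppt_207946 had values of 0.86 ± 0.39 and 0.71 ± 0.36, and their ES3 libraries lay above all ES2 libraries, as for 13.4% of all transcripts. The 3 NAC protein 1 transcripts had values of -0.43 to -0.34, which became -0.89 to -0.76 without ES3 replicate C, the library where all 3 were highest within ES3. BEARSKIN1 had a value of -0.20 ± 0.47, and -0.66 ± 0.48 without that library.

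The change over a step was also compared directly between somatic and zygotic embryos, as the difference of the 2 log2 fold changes. Over the first step edgeR called none of the 7, with 2 at an unadjusted p under 0.05 and 0 called by DESeq2, beside 1.07% of all transcripts called higher and 2.08% called lower. The values were -0.32 to 0.89 for the 6 transcripts other than BEARSKIN1. Over the second step 4 were called higher and 2 lower, beside 25.9% and 18% of all transcripts. The NAC domain pair had differences of -3.62 ± 0.62 and -4.67 ± 0.61 for ppt_207949 and ppt_207946, with the smaller change in the somatic step. The differences were 2.32 ± 0.51 for ppt_58154, 3.31 ± 0.79 for ppt_58155, 2.28 ± 0.76 for ppt_58156 and 3.92 ± 0.42 for NAC100, again with the smaller change in the somatic step. These sizes depend on the scaling of C. By reads on kept transcripts in place of TMM the differences were -2.21 for ppt_207949, -3.26 for ppt_207946, 3.69, 4.64 and 3.63 for ppt_58154, ppt_58155 and ppt_58156 and 5.36 for NAC100. By the deposited column total they were -1.72, -2.77, 4.18, 5.10, 4.11 and 5.85 in the same order, and the same number was called under each scaling. BEARSKIN1, with no read in EC and 2 in C, allows no such comparison.

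**Figure D3:**
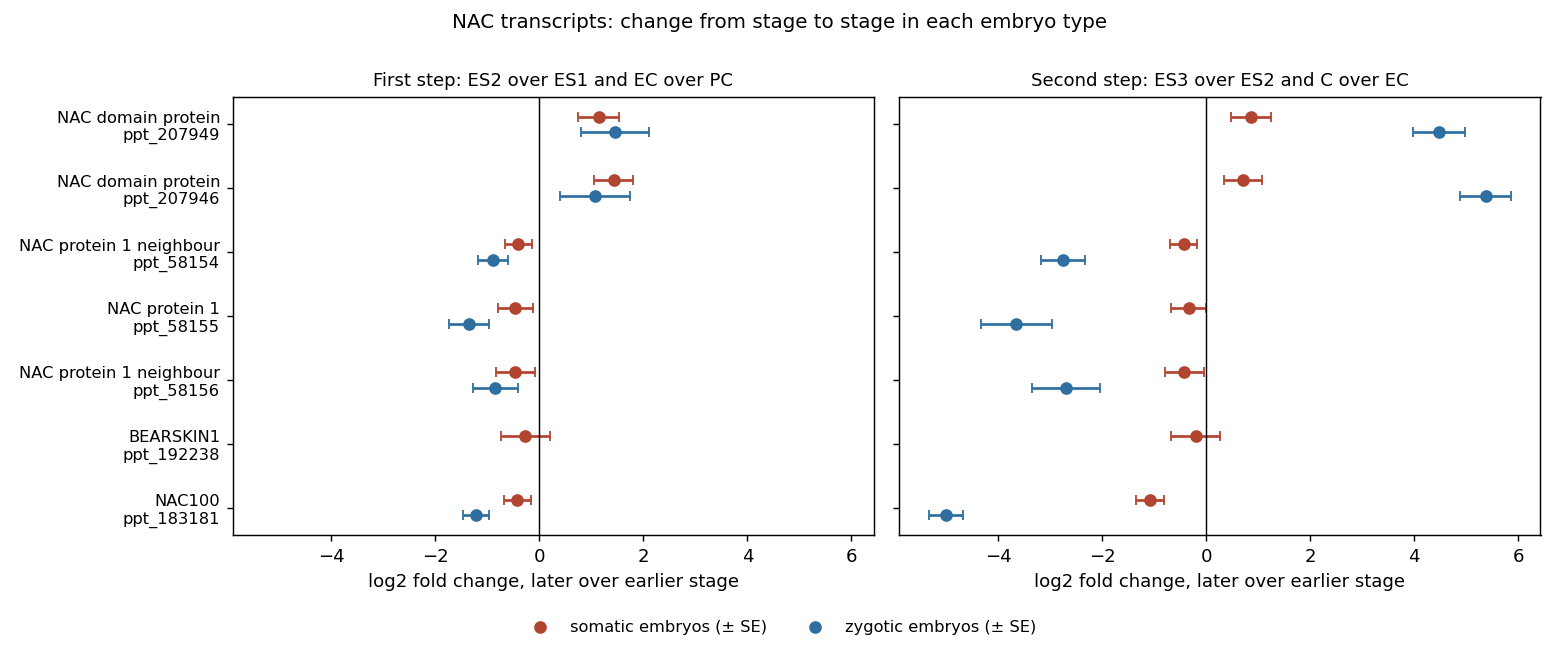
Log2 fold change of the later over the earlier stage (horizontal axis, ± SE) for the 7 transcripts (vertical axis) in somatic and zygotic embryos, with the first step on the left and the second on the right; zygotic BEARSKIN1 is left out because EC had no read. Somatic values stay between -1.09 and 1.43, while the zygotic second step spans -5.01 for NAC100 to 5.38 for ppt_207946.

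Since every value of the second zygotic step rests on the scaling of C, the levels were also set without TMM. ppt_207946 averaged 14.2 ± 3.62 CPM in ES3 and 5.92 ± 2.72 CPM in C with TMM (SD, n = 3). Scaled by the reads on kept transcripts it averaged 13.2 ± 1.83 CPM in ES3 and 2.52 ± 1.17 CPM in C, and scaled by the deposited column total 13.1 ± 1.83 CPM and 1.78 ± 0.825 CPM. The median log2 fold change of all transcripts in ES3 against C moved as well, and was 0.19 with TMM, 1.34 by reads on kept transcripts and 1.84 by column totals. Measured from that median, ppt_207946 lay 1.08, 1.04 and 1.04 higher, ppt_58155 8.46, 8.34 and 8.30 higher, and NAC100 1.87, 1.86 and 1.85 higher. In C against EC the medians were -0.07, -1.71 and -2.20, from which ppt_207946 lay 5.44, 5.45 and 5.45 higher and NAC100 4.94, 4.93 and 4.93 lower. A change of scale moves all transcripts nearly alike, so these distances from the median stay put by construction. They are no test of whether the differences with C withstand the scaling. With TMM, 6914 transcripts were called higher and 3501 lower in ES3 against C, and by reads on kept transcripts 13982 and 1129. The sign of every difference with C was the same under the 3 scalings, but most signs could not have turned. In ES3 against C all 7 were higher with TMM, and both other scalings raised each value. In C against EC both lowered each value, so only values higher with TMM could turn. The NAC domain pair stayed higher there, at 2.85 and 3.75 by reads on kept transcripts and at 2.35 and 3.25 by column totals. BEARSKIN1 had too few reads for a fold in that step.

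**Figure D4:**
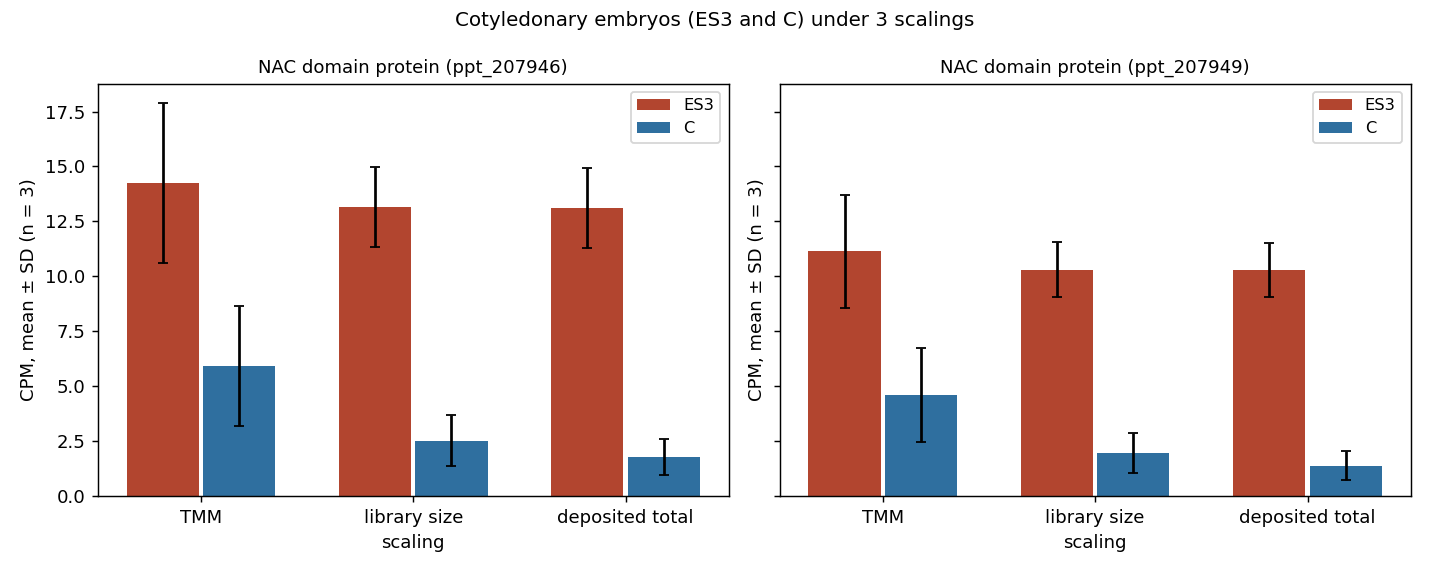
Mean level ± SD of 3 libraries (vertical axis, CPM, from 0) of the NAC domain transcripts ppt_207946 and ppt_207949 in ES3 and C under 3 scalings (horizontal axis). ES3 hardly moves, while ppt_207946 in C is at 5.92, 2.52 and 1.78 CPM.

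The identifiers next to the 7 transcripts were examined because the counting of reads that match several transcripts is not stated. Among the 20 identifiers within 10 of ppt_58154 to ppt_58156, 16 had reads in C alone and 4 had none anywhere. Those 16 held a summed mean of 1985 reads in a C library, against 12 for the 3 NAC transcripts. Around BEARSKIN1, 17 of 20 had reads in C alone, with a summed mean of 331 reads against 0.667. Around NAC100, 6 of 20 had reads in C alone, with a summed mean of 851.7 reads against 11 for NAC100. Around the NAC domain pair 10 of 22 had reads in C alone, with 329.3 reads against 248.3. These neighbours carry no name here, and whether they are copies of the NAC transcripts is unknown. Their part in the low C values of NAC protein 1, BEARSKIN1 and NAC100 was not tested, nor was their part in the turn of NAC100 in ES3 against C. The differences at the 2 earlier stages do not involve C, and without the C libraries in the filter, the scaling and the fit the calls of the 7 were the same.

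A further 10 transcripts named as NAC or CUP-SHAPED COTYLEDON proteins were also followed. Names came only from the supplementary tables of the study, where few of the 23118 kept transcripts had a descriptive one. The 10 are therefore no survey of the family. Of these, 5 (ppt_207944, ppt_207947, ppt_207948, ppt_207950 and ppt_207951) share the name NAC domain protein with ppt_207946 and ppt_207949 and lie beside them in the table. They ranged from 1.17 to 2.60 CPM in ES1, from 3.501 to 6.86 in ES2 and from 7.04 to 10.7 in ES3 as stage means, and from 0.0760 to 0.261 in PC, 0.0860 to 0.165 in EC and 1.76 to 4.65 in C. All 5 rose in ES1 against PC, in ES2 against EC and in ES3 against C. Summed over the 7 transcripts of this name, the level was 14.8 ± 2.01 CPM in ES1, 39.6 ± 2.92 in ES2 and 69.0 ± 21.9 in ES3, and 0.930 ± 0.329 in PC, 1.03 ± 0.362 in EC and 24.1 ± 10.7 in C (SD, n = 3). The unnamed neighbour ppt_207953, chosen after its values were seen, was at 7.05, 20.4 and 38.1 CPM in ES1, ES2 and ES3 and at 0.335, 0.332 and 5.15 CPM in PC, EC and C. Their next neighbour ppt_207952 was between 214.5 and 343 CPM at every stage and thus did not share the pattern. The 7 may be forms of 1 gene or of several, which the table does not tell.

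The match of Arabidopsis CUC2 (ppt_183182), the identifier next to NAC100, followed it closely outside C and was low with it in C. It was at 10.7 ± 0.656 CPM in ES1, 6.70 ± 0.447 in ES2 and 3.93 ± 0.717 in ES3, and at 60.6 ± 10.6 in PC, 28.7 ± 4.78 in EC and 1.68 ± 1.15 in C. On the log2 scale CUC2 differed by -2.50 ± 0.36 in ES1 against PC, by -2.10 ± 0.35 in ES2 against EC and by 1.25 ± 0.38 in ES3 against C, with the same turn of direction as NAC100. The within-library ratio of NAC100 to CUC2 reads had a median of 0.521 and ranged from 0.367 to 0.754 over 15 libraries. These had at least 20 reads of NAC100 and 50 of CUC2, which left out C. The reads of NAC100 and CUC2 were 14 and 50 in C replicate 1, 12 and 10 in replicate 2, and 7 and 57 in replicate 3. The 10 identifiers before NAC100 that were kept did not share its course, and their r with it ran from -0.56 to -0.04.

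Of the remaining 4 NAC transcripts, 3 fell in ES1 against PC and all 4 fell in ES2 against EC. NAC transcription factor 32 (ppt_42141), matched to an Arabidopsis protein of the stress-related branch of the family, averaged 0.682 CPM in ES1 and 5.12 CPM in PC, and 0.242 CPM in ES2 and 1.91 CPM in EC. It fell in both comparisons, by 2.90 ± 0.63 and 2.96 ± 0.66 on the log2 scale. The matches of NAC domain-containing protein 8 (ppt_198881 and ppt_198883) fell by 1.18 ± 0.26 and 1.79 ± 0.26 on the log2 scale in ES1 against PC. A NAC domain protein outside the cluster (ppt_55145) averaged 2.93 CPM in ES1 and 4.49 CPM in PC, where the groups overlapped and it was not called, and 0.806 CPM in ES2 and 5.61 CPM in EC, where it fell by 2.80 ± 0.47 on the log2 scale. It had no read in any C library, against 767 reads in EC, and was at least 141.6-fold lower in C than in EC. Over all 10, 5 were called higher and 4 lower in ES1 against PC, beside 24.2% and 13.5% of all transcripts. In ES2 against EC 5 and 5 were called, beside 22.7% and 16.7%. In ES3 against C 7 were called higher, beside 29.9% of all transcripts, and ppt_42141, ppt_198883 and ppt_198881 were not called. By reads on kept transcripts in place of TMM 8 were called higher, with a median log2 fold change of 2.58. Of all 23118 transcripts 13982 were then called higher, with a median of 1.34. By column totals 9 were called higher with a median of 3.07, beside 17531 of all transcripts and a median of 1.84 over all. With TMM the list had median log2 fold changes of 0.77, 1.61 and 1.46 in these 3 comparisons beside medians of 0.03, -0.04 and 0.19 over all transcripts.

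Among hub transcription factors of other families the direction of the 6 somatic-high transcripts was rare in ES1 against PC and in ES2 against EC, but not in ES3 against C. Of 54 such factors in the study's list 46 were kept, and 2 rose and 40 fell in ES1 against PC, with a median log2 fold change of -2.27. Of all transcripts 24.2% were called higher and 13.5% lower there. In ES2 against EC 2 rose and 43 fell, with a median of -2.38, beside 22.7% and 16.7% of all transcripts. Of the ERF factors, which respond to ethylene, 9 of 10 fell in each of these comparisons, and of the 7 HMG proteins, which bind DNA in chromatin, all fell. In ES3 against C 18 rose, 8 of them ERF factors, and 8 fell, beside 29.9% and 15.1% of all transcripts. By reads on kept transcripts in place of TMM 31 rose and 2 fell, beside 13982 and 1129 of all 23118 transcripts. The list was also drawn from these libraries, so its counts are no independent evidence of direction.

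The level patterns of most of the NAC transcripts are described as 3 sets by Pearson's r of log2(CPM + 1), with no clustering run. ppt_55145, ppt_198881 and ppt_198883 were placed in none of the sets. ppt_55145 had an r of 0.85 with NAC100, and ppt_198881 and ppt_198883 had an r of 0.89 with each other. ppt_207949 and ppt_207946 had an r of 0.99 over 18 libraries and of 0.96 to 0.99 with the 5 others of their name. ppt_58154, ppt_58155 and ppt_58156 had an r of 0.99 to 1.00 with one another and of 0.97 to 0.98 with BEARSKIN1. NAC100 had an r of 0.98 with CUC2 and of 0.93 with NAC transcription factor 32. Between NAC100 and ppt_58154 r was -0.11 over 18 libraries and -0.81 over the 15 without C, and between the NAC domain pair and ppt_58154 it was 0.54 over 18 and 0.85 to 0.86 over 15. The libraries share their stage and their embryo type, so such values describe how alike the 6 stage levels are.

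**Figure D5:**
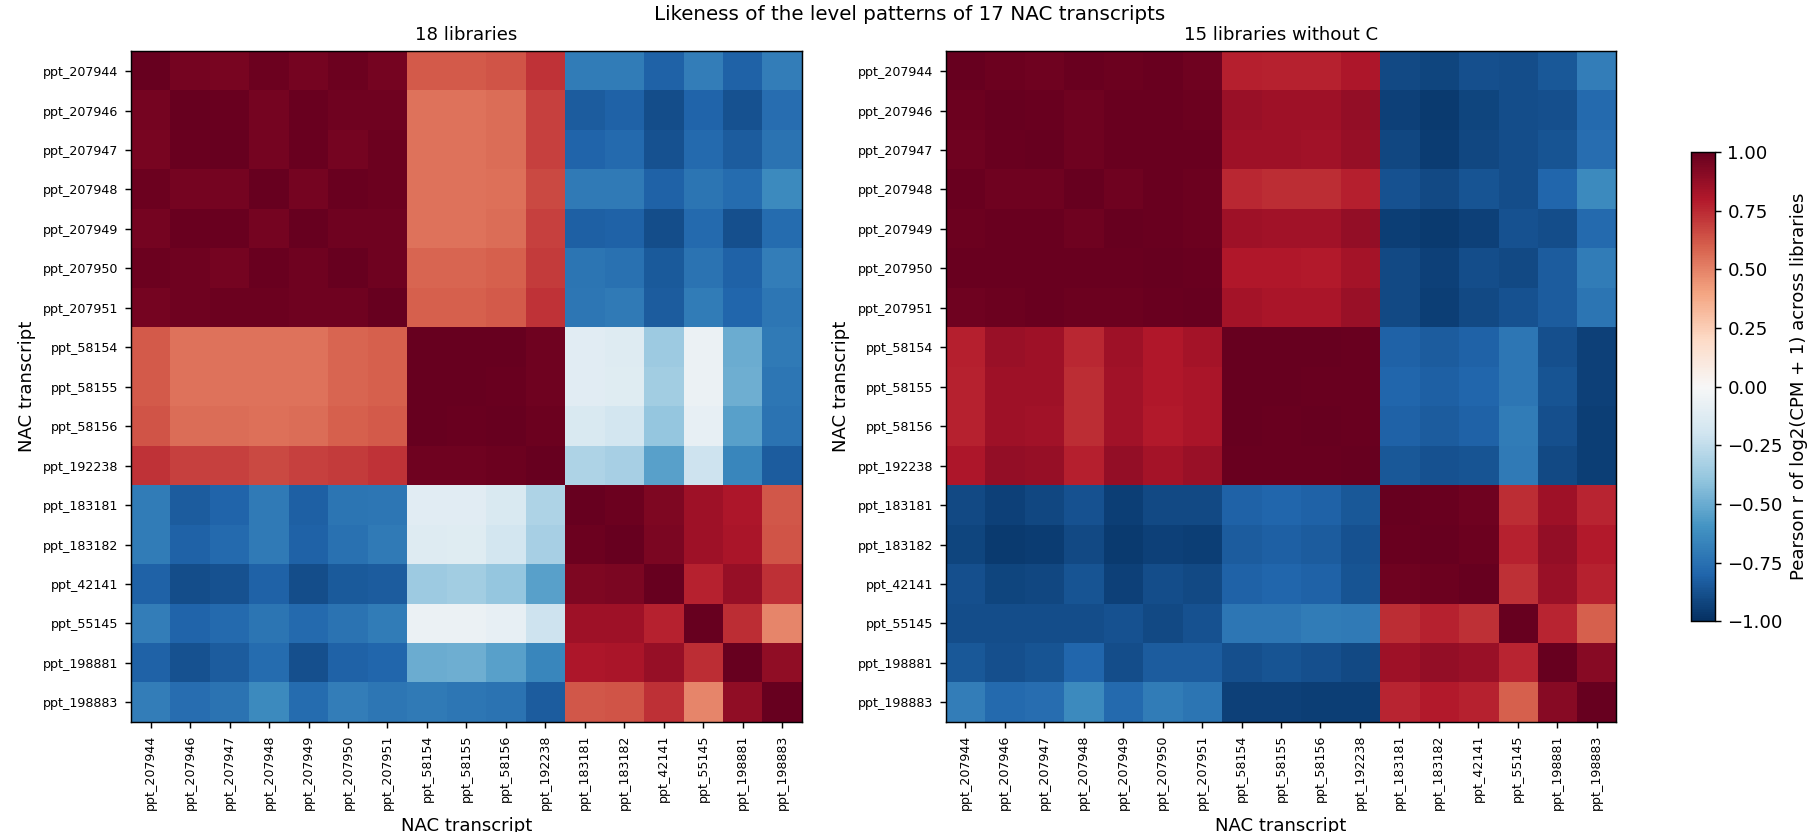
Pearson's r of log2(CPM + 1) between 17 NAC transcripts (both axes), over 18 libraries on the left and over the 15 without C on the right; red is positive and blue negative. The NAC domain cluster, the NAC protein 1 transcripts with BEARSKIN1, and NAC100 with CUC2 and NAC transcription factor 32 form blocks, and the r of NAC100 with ppt_58154 goes from -0.11 to -0.81 without C.

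Outside the NAC family, the named transcripts with the most similar patterns were drawn from those with a name in the supplementary tables. For BEARSKIN1 they were a class I chitinase (ppt_186897), a caffeic acid O-methyltransferase (ppt_108809) and a class IV chitinase (ppt_144739), each with an r of 0.994. Chitinases cleave chitin, and caffeic acid O-methyltransferases act in monolignol synthesis. The class I chitinase averaged 65.1, 68.1 and 52.98 CPM in ES1, ES2 and ES3 and 0.521, 0.150 and 0.0148 CPM in PC, EC and C. In all, 524 of the 23118 transcripts had an r above 0.95 with BEARSKIN1, so the pattern is a common one.

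For the NAC domain pair the most similar were a match of Arabidopsis SMU2, a splicing factor (ppt_93487), with an r of 0.982 to ppt_207949 and 0.984 to ppt_207946. A match of LYK5 (ppt_62460), which in Arabidopsis is a receptor kinase for chitin, had an r of 0.98 to ppt_207946, and a longifolene synthase (ppt_115129), a terpene synthase, had an r of 0.973 to ppt_207949. A moss protein without a description (ppt_251251) had an r of 0.976 to ppt_207946 and a *Wollemia nobilis* transcript (ppt_195126) one of 0.979 to ppt_207949. The r with ppt_207949 was above 0.95 for 110 transcripts, the fewest of the 7.

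For NAC protein 1 and its neighbours the list held undescribed *Wollemia nobilis* transcripts (ppt_194909, ppt_194910 and ppt_250085), a nucleosidase-related protein (ppt_62366) and a purple acid phosphatase (ppt_126276), with r of 0.988 to 0.997. For NAC100 it held a high mobility group B protein (ppt_230054) and a plasma membrane ATPase (ppt_236388), both with an r of 0.982, and a *Wollemia nobilis* transcript (ppt_214842) with 0.979. The ATPase, a proton pump, averaged 3.15 CPM in ES1 and 17.6 CPM in PC, and 2.45 CPM in ES2 and 12.6 CPM in EC.

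Because BEARSKIN proteins act in cell separation in Arabidopsis, transcripts of pectin-degrading and other cell separation enzymes were listed beside BEARSKIN1. All 32 of the list were kept. In ES1 against PC 12 rose and 17 fell, with a median log2 fold change of -1.28, and in ES2 against EC 13 rose and 18 fell, with a median of -1.48. Of all transcripts, 24.2% were called higher and 13.5% lower in ES1 against PC, and 22.7% and 16.7% in ES2 against EC. In ES3 against C 19 rose and 1 fell, with a median of 3.03, beside 29.9% and 15.1% of all transcripts. By reads on kept transcripts in place of TMM 26 rose, beside 13982 of all 23118 transcripts. The summed level was 729 to 756 CPM in ES1, 219 to 232 in ES2 and 176 to 298 in ES3, and 221 to 267 in PC, 198 to 249 in EC and 73.0 to 124 in C. A pectate lyase (ppt_220398) made up most of the ES1 sum, at 447 ± 17.02 CPM in ES1, 25.3 ± 10.2 in ES2 and 17.36 ± 14.7 in ES3 and at 13.3 ± 5.65 CPM in PC (SD, n = 3), so its course over the somatic stages was not that of BEARSKIN1. A polygalacturonase match (ppt_121485) averaged 27.8 ± 1.41 CPM in ES1, against 89.1 ± 15.5 CPM in PC, and 36.5 ± 4.86 CPM in ES2 and 95.5 ± 12.8 CPM in EC.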

How the data were processed

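RNA of 18 libraries, 3 for each of the stages ES1, ES2, ES3, PC, EC and C, was analysed from 1 deposited table. The authors deposited whole-number read counts per transcript that were not normalized. By the methods of the study, reads were trimmed, assembled, mapped to the maritime pine transcriptome with BWA and counted per transcript, and bcl2fastq stands beside BWA in the processing notes of the submitters. No source used here gives their versions, the strand setting or the treatment of reads that match several transcripts, which leaves the counts uncertain where several transcripts carry 1 name. The labels matched all 18 columns to a sample.

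The filter of the study's methods was used, which keeps a transcript if at least 6 libraries exceed 2 CPM, and it kept 23118 of 287424. Counts were scaled by TMM and fitted in edgeR 4.0.16 (limma 3.58.1, R 4.3.3) with all 18 libraries in 1 model of 6 groups. The quasi-likelihood F-test was adjusted by Benjamini-Hochberg over all kept transcripts, and transcripts were called at a log2 fold change beyond 1 in size with an adjusted p under 0.05. Adjusted p-values of the 7 transcripts are not printed, because the study chose them on these libraries. The SE was obtained by dividing the absolute log2 fold change by the root of the F statistic. Folds against a group at 0 use a floor of 3 reads over the group. The fit was tried on simulated counts with known folds in ES1 against PC. These counts held no shift in composition like that of C, so they do not bear on values with C.

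The 7 transcripts and all lists were chosen with earlier results of these data known. Named are the 7, the 10 other transcripts whose supplementary name is NAC or CUP-SHAPED COTYLEDON, for each of the 7 the 3 kept transcripts of other names with the highest Pearson's r of log2(CPM + 1) and an identifier more than 10 away, and the 2 transcripts with the highest mean CPM of the pectin and of the LEA lists. Libraries of a group differed beyond sampling noise (chi-square over its degrees of freedom 12.6 to 158.1), most for ES3 replicate C. The alternatives were DESeq2 size factors, library size alone, the deposited total and filters at 1 CPM in 3 libraries or 1 count in any. Further ones were DESeq2 1.42.0, an adjusted p under 0.01, no fold threshold, only the groups compared and a replicate block. Counts were also summed over the adjacent NAC domain transcripts and over NAC protein 1 with its neighbours, and each library was left out in turn. A fit without C was added after seeing the data.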

Additional observations from a re-analysis of the deposited data

Results flagged for a closer look

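The change from the middle to the last stage differed between somatic and zygotic embryos for 6 of the 7 transcripts by the test of that difference in edgeR. These were ppt_207949 (-3.62 ± 0.62 SE, log2 scale, somatic step minus zygotic step), ppt_207946 (-4.67 ± 0.61), ppt_58154 (2.32 ± 0.51), ppt_58155 (3.31 ± 0.79), ppt_58156 (2.28 ± 0.76) and NAC100 (ppt_183181, 3.92 ± 0.42). Under other scalings of the libraries the sizes moved by over 1.5 times for some of them, to -2.21 by reads on kept transcripts and -1.72 by the deposited total for ppt_207949, to -3.26 and -2.77 for ppt_207946, to 3.69 and 4.18 for ppt_58154, to 4.64 and 5.10 for ppt_58155, to 3.63 and 4.11 for ppt_58156 and to 5.36 and 5.85 for NAC100. All 6 rest on the 3 C libraries, which were counted on more transcripts than the others, and over all transcripts 25.9% were called higher and 18% lower for this difference. The 7 were chosen on these libraries, so the differences are no independent evidence.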

How the results depend on the processing

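The calls of the 7 transcripts in ES1 against PC, ES2 against EC and C against EC were the same in number under every alternative run, those without 1 library included. In ES3 against C the number called higher was 5 to 7 without 1 library, with 5 when C replicate 2 was left out, and 6 at an adjusted p under 0.01. Over the second step, 3 to 4 differences were called higher without 1 library, and 3 with a filter at 1 count in any library and at an adjusted p under 0.01. The counts of 1 or 2 calls within an embryo type were less firm. The number called higher in ES2 against ES1 was 1 in place of 2 by library size alone, by the deposited total, with either wider filter and at an adjusted p under 0.01, and 1 to 2 without 1 library. The number called lower in ES3 against ES2 was 0 at an adjusted p under 0.01 and with only the groups compared, and 0 to 1 without 1 library. The number called lower in EC against PC was 1 with either wider filter, at an adjusted p under 0.01 and with the replicate block. It was 3 by library size alone, by the deposited total, by DESeq2 and with no fold threshold, and 1 to 3 without 1 library. With counts summed it was 4, but a summed fit is counted there for each transcript in it. These 4 are NAC100 and 1 summed fit of NAC protein 1 with its neighbours, at -1.03. The replicate block changed no other count. By library size alone, the share of higher among all calls was 44.4% in place of 57.6% in ES2 against EC, 31.4% in place of 46.7% in ES2 against ES1, 12.8% in place of 37.8% in ES3 against ES2, 61.6% in place of 72.1% in EC against PC, 8.3% in place of 43.9% in C against EC, 92.5% in place of 66.4% in ES3 against C and 92.9% in place of 59% for the difference of the second steps. Same-labelled libraries did not deviate together, with 5 of 18 pairs at an r above 0.1 (range -0.43 to 0.42), so the letters and numbers were not taken as pairs.

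Directions turned only for values that were not called. For the difference of the first steps ppt_207949 was at -0.32 and became 1.3 with counts summed over the NAC domain transcripts, and without 1 library it ran from -0.72 to 0.54 and that of ppt_207946 from -0.06 to 1.00. Without 1 library, BEARSKIN1 in ES3 against ES2 ran from -0.66 to 0.04 and in C against EC from 0.00 to 3.82 on 2 reads. The causes were not tested. Depth limits BEARSKIN1 in zygotic embryos, NAC protein 1 in C and the NAC domain pair in PC and EC, where a group holds 25 reads or fewer of a transcript.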
